A study of Mus musculus with 4 samples.

Results

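The genes of nerve tissue were followed in dissected mouse organs of Corti, as 27 genes of neurons and 9 genes of myelinating glia. These 36 genes were found by their symbols among the 29924 distinct entries in the gene name column of the array, and each was represented by its brightest probe, a spotted 60-base oligonucleotide. The rule found genes by their names, and the brightest probe was picked by intensity averaged over both genotypes, not by ratio. Together they have 55 probes, of which 52 matched a RefSeq symbol through their accession, each time the symbol given on the array. The comparison asked how much nerve RNA the dissections held and whether it differed between the genotypes.

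RNA came from organs of Corti, the sensory epithelium of the cochlea, dissected at E18.5 (embryonic day) from the basal part of the duct of NMRI mouse embryos. Sox2-Tbx2LOF embryos carried the genotype Sox2(creERT2);Tbx2(fl/fl), in which a tamoxifen-dependent recombinase is made from the Sox2 locus and removes floxed Tbx2, and controls lacked the recombinase. Loss of Tbx2 and the recombinase allele at the Sox2 locus therefore go together and cannot be told apart in these ratios. The labels give controls as Tbx2(fl/n.d.), with the other Tbx2 allele not determined. In the crosses that the methods of the study describe, both parents were Tbx2 fl/fl and the dams R26 mTmG/mTmG, so that littermates of either genotype would be Tbx2 fl/fl and carry the R26 mTmG reporter. All dams received 4 mg of tamoxifen at E16.5, and by the methods of the study they also received progesterone. Every sample was a pool of organs of Corti from several embryos of 1 sex, with 4 pools per genotype. Each of 4 dual-colour arrays held a Sox2-Tbx2LOF and a control pool. Arrays 1 and 2 held female and arrays 3 and 4 male pools, and the Sox2-Tbx2LOF pool was labelled with Cy3 on arrays 1 and 3 and with Cy5 on arrays 2 and 4. Spiral ligament and spiral ganglia had been removed, and the driver is not restricted to the sensory epithelium, since Sox2 is also known from glial cells of the cochlear nerve.

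Spiral ganglion neurons are the first neurons of the auditory pathway. Their cell bodies lie outside the organ of Corti, and their peripheral processes enter it and end on inner or outer hair cells. Schwann cells ensheathe these processes up to the point where they enter the epithelium, and satellite glia surround the cell bodies. RNA of neurons in a dissected organ of Corti can therefore come from adhering ganglion or from axons. Several of the 36 genes are not exclusive to nerve tissue. Hair cells share parts of the vesicle release machinery with neurons, and Pmp22 and Cnp are also made by other cells. In such bulk RNA, fewer cells of a type and less RNA per cell cannot be told apart.

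On the 4 arrays the median local background was 31 to 33 in Cy3 and 68 to 80 in Cy5, 70.4% to 75.2% of probe spots were well above background, and no spot was saturated. The log2 ratio of Sox2-Tbx2LOF over control correlated across 28104 tested probes with r of 0.43 and 0.46 between arrays of the same dye orientation. Between arrays of opposite orientation r lay between −0.28 and −0.09, and the dye was a term of every fit unless stated. Tbx2, at the probe chr11:85655391-85655450 (mm9), had log2 ratios of −0.06, −0.24, −0.02 and −0.30 on arrays 1 to 4 (limma, mean −0.15, adjusted p 0.313), and whether recombination removes this part of the transcript was not analysed here.

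RNA of nerve tissue was present in every pool. The probes of 35 of the 36 genes were well above background in all 8 pools, including the neurofilament genes, the neuronal transcription factor Pou4f1 and all 9 glial genes. Sox10, a transcription factor made by Schwann cells and satellite glia, was also well above background in all 8 pools. Whether its RNA came only from glia was not tested. The 10 hair cell markers and the 7 supporting cell markers of a fixed list were above background in all pools as well, as were the 6 mesenchymal markers, 4 of 5 blood markers and 3 of 4 melanocyte markers. The signal of a nerve gene in its dimmest pool ranged from 2.09 times the local background for Slc17a7 to 476 times for Stmn3. Syt2, a calcium sensor of fast transmitter release, was the single member that was not well above background on any array in either channel. Its signal in the dimmest pool was 0.921 times the background, and it was not tested.

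No nerve gene was called changed in Sox2-Tbx2LOF pools, where a call needs a limma adjusted p under 0.05 and a fold of at least 1.5. Of all 28104 tested probes, 70 were called (0.249%). Among the 35 tested members 1 had an adjusted p under 0.05 without the fold, against 276 probes (0.982%) of all. An unadjusted p under 0.05 was found for 3 members, Gfra3, Syt1 and Mal, against 7.11% of all probes, and all 3 means were above 0. The 95% confidence interval of each of the 35 ratios lay inside a 1.5-fold change in either direction (0.585 on the log2 scale), and the outermost bounds were −0.29 for Prph and 0.41 for Syt1. Such an interval was also found for 27923 of the 28104 tested probes, so it does not set the members apart. The mean ratio lay above 0 for 30 members, 23 neuronal and 7 glial, and below 0 for 5, against 51.9% above 0 among all tested probes. The shift was small, with a median log2 ratio of 0.05 over the 35 members, 0.05 over the 26 neuronal and 0.08 over the 9 glial members, beside 0.00 over all tested probes. It was not even over the arrays. On arrays 1 to 4 the ratio was above 0 for 23, 15, 25 and 20 of the 35 members. The median of the glial members was 0.29, −0.01, 0.20 and −0.08 on arrays 1 to 4, an SD of 0.17 that exceeds their median of 0.08. On arrays 1 to 4 the median was 0.03, −0.03, 0.07 and 0.04 for the neuronal and 0.05, −0.02, 0.08 and 0.03 for all members. The SD of these array medians was 0.043 for the neuronal members and 0.043 for all members. The shift was thus about the size of this spread, since the medians over the gene means were 0.048 and 0.052.

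**Figure D1:**
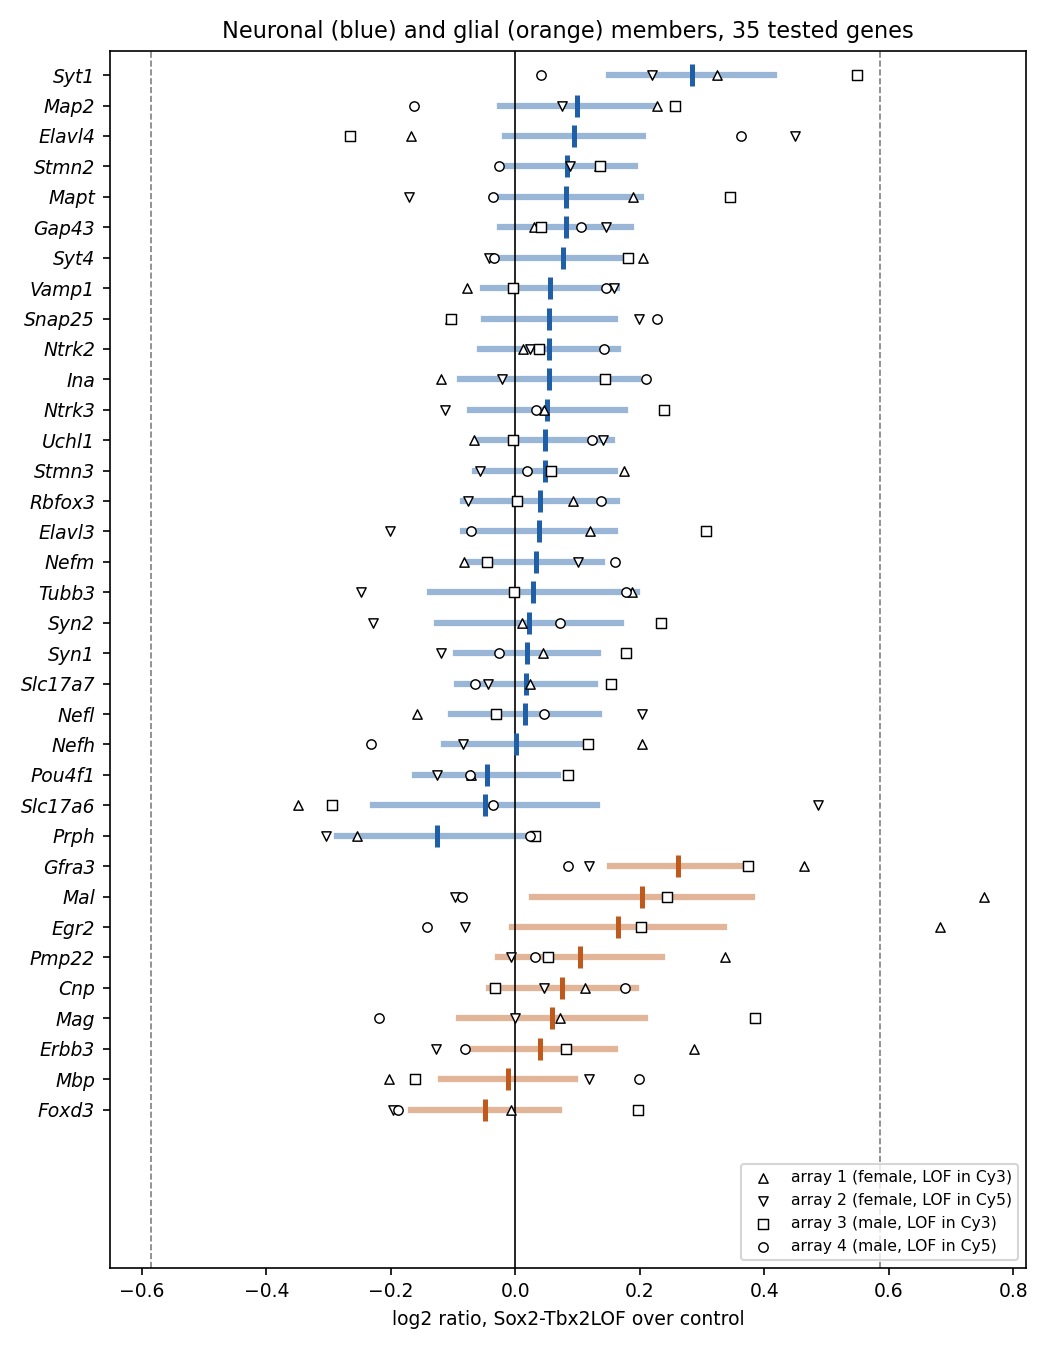
Log2 ratio of Sox2-Tbx2LOF over control (x axis) for the 35 tested members (y axis), with neuronal genes in blue and glial genes in orange. Symbols are the 4 arrays, short vertical lines the means, thick horizontal bars the 95% confidence intervals of limma, and dashed lines mark a 1.5-fold change. All bars lie between the dashed lines, and single arrays of Mal and Egr2 lie outside them.

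The receptor genes Ntrk2 and Ntrk3 illustrate what a probe reads. They encode the receptors for brain-derived neurotrophic factor and neurotrophin-3, on which the survival of spiral ganglion neurons depends, and both genes make kinase-containing and truncated forms. The probes below are shown because the Ntrk2 probe reads both forms together, while each Ntrk3 probe is assigned to only 1 of them. Their mm9 positions were taken from the array files.
Ntrk2, assigned to transcripts of both forms, chr13:58979563-58979622, plus strand: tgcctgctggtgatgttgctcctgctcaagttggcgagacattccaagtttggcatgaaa
Ntrk3, brightest probe, kinase-containing transcript, chr7:85337455-85337514, minus strand: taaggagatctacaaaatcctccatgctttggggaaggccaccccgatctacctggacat
Ntrk3, kinase-containing transcript, chr7:85392044-85392103, minus strand: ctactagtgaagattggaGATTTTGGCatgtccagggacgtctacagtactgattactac
Ntrk3, truncated transcript, chr7:85447515-85447574, minus strand: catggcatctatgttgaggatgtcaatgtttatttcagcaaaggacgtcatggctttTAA
The capitals GATTTTGGC mark codons for aspartate, phenylalanine and glycine, the motif at the start of the activation loop of protein kinases, and these letters occur on either strand in 32 of the 39429 probes of the array (0.0812%). The capitals TAA mark the stop codon of the truncated form, and 3.5% of all probes end in these letters.

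Neither receptor gene passed the correction at any of its probes. The Ntrk2 probe shared by both forms had log2 ratios of 0.01, 0.02, 0.04 and 0.14 on arrays 1 to 4. Its level was 12.33, 12.33, 12.33 and 12.36 in the Sox2-Tbx2LOF pools and 12.32, 12.30, 12.29 and 12.22 in the control pools (log2 intensity). The genotypes did not overlap, but they lay only 0.05 apart on average (limma, SE 0.048, unadjusted p 0.294, adjusted p 1.00). At the probe of the kinase-containing Ntrk2 transcript the mean ratio was 0.13 (unadjusted p 0.0270), and at that of the truncated transcript it was 0.17 (unadjusted p 0.0356). All 3 Ntrk2 probes were higher on 4 of 4 arrays, as were 4.43% of all tested probes. For Ntrk3 the kinase-containing probes had mean ratios of 0.05 and 0.02, and the truncated form had 0.06 at the probe with the stop codon and 0.09 at another. All 4 Ntrk3 means thus lay between 0.02 and 0.09, with array values of both signs at each probe.

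The intermediate filaments of axons showed no genotype difference past the test. Mean log2 ratios were 0.02 for Nefl, 0.03 for Nefm and 0.00 for Nefh, the light, medium and heavy neurofilament chains, and 0.05 for Ina, which encodes internexin alpha. Prph encodes peripherin, a filament protein that in the mature ganglion marks the neurons that contact outer hair cells. It had the lowest mean of all members. Its level was 11.54, 11.52, 11.62 and 11.62 in the Sox2-Tbx2LOF pools and 11.80, 11.82, 11.59 and 11.60 in the control pools. The female control pools were thus the highest, and the male pools of both genotypes lay close together. The mean ratio of Prph was −0.13 ± 0.18 (SD, n = 4), with a limma SE of 0.070, an unadjusted p of 0.107 and an adjusted p of 0.934. It was −0.04 without array 2 and −0.21 without array 4.

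The microtubule genes had positive means that did not pass the test. These are Tubb3 (0.03), the tubulin isotype used as a neuronal marker, the tubulin-binding stathmins Stmn2 (0.08) and Stmn3 (0.05), and the microtubule-associated Map2 (0.10) and Mapt (0.08). For Map2 the ratios were 0.23, 0.07, 0.26 and −0.16 on arrays 1 to 4, so that 1 array opposed the other 3 (limma, SE 0.054, unadjusted p 0.104, adjusted p 0.924). Stmn2 had 0.13, 0.09, 0.14 and −0.03 (SE 0.048, unadjusted p 0.120, adjusted p 0.973).

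Gap43, which encodes a membrane protein of growing axons, was among the most even members. Its level was 13.46, 13.51, 13.45 and 13.46 in the Sox2-Tbx2LOF pools and 13.43, 13.36, 13.41 and 13.36 in the control pools. The genotypes did not overlap, as for Syt1 and Ntrk2, and such non-overlap with Sox2-Tbx2LOF higher was seen for 1.19% of all tested probes. No tested member lay without overlap on the lower side, where 1.33% of all probes did. The Gap43 ratio was 0.08 ± 0.05 (SD, n = 4), positive on 4 of 4 arrays, and limma gave an SE of 0.046, an unadjusted p of 0.117 and an adjusted p of 0.961.

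Syt1 had the highest mean of all members. It encodes synaptotagmin 1, a calcium sensor of synaptic vesicles. Its probe lies at chr10:107935310-107935369 on the minus strand. The Syt1 level was 12.23, 12.19, 12.47 and 12.04 in the Sox2-Tbx2LOF pools and 11.91, 11.97, 11.92 and 12.00 in the control pools. All Sox2-Tbx2LOF pools lay above all control pools, although pool 4 exceeded the highest control pool by little. The ratio was 0.28 ± 0.21 (SD, n = 4), or 1.22-fold, and it ran from 0.04 on array 4 to 0.55 on array 3. Limma gave an SE of 0.058 with an unadjusted p of 0.00101, and Syt1 did not pass the correction (adjusted p 0.0791). Without array 4 the ratio of Syt1 was 0.33 and the adjusted p was 0.0243, and without arrays 1, 2 and 3 in turn the adjusted p was 0.0705, 0.161 and 0.305. This was the only one of 15 alternatives in which Syt1 passed, and the adjusted p reached 0.522 in the series matrix.

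The other genes of vesicle release did not stand out in this way. Syt4, a synaptotagmin that does not sense calcium like Syt1 and is also made by hair cells, had ratios of 0.20, −0.04, 0.18 and −0.03 (limma, mean 0.08, SE 0.046, unadjusted p 0.131, adjusted p 0.998). Snap25 and Vamp1, membrane and vesicle proteins of the fusion complex, had means of 0.05 and 0.06, and the synapsins Syn1 and Syn2 had 0.02 each. The transporters that load glutamate into vesicles, Slc17a6 and Slc17a7, had means of −0.05 and 0.02. Slc17a6 was the most uneven neuronal gene, with ratios of −0.35, 0.49, −0.29 and −0.04 (SD 0.38).

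The remaining neuronal members were a deubiquitinating enzyme, RNA-binding proteins and a transcription factor. Uchl1, the enzyme known as PGP9.5, had a mean of 0.05 and Pou4f1 one of −0.05. Rbfox3, which encodes the nuclear antigen NeuN, and the Hu protein genes Elavl3 and Elavl4 had means of 0.04, 0.04 and 0.09. Elavl4 had ratios of −0.17, 0.45, −0.27 and 0.36, negative with Sox2-Tbx2LOF in Cy3 and positive with it in Cy5 (limma, SE 0.049, unadjusted p 0.0855, adjusted p 0.869). A dimmer Elavl4 probe ran the other way, with 0.46, −0.05, 0.07 and −0.13. The mean of the 2 probes was nearly the same (0.09 each), while their single arrays disagreed in sign on all 4.

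Among the glial genes, Gfra3 was the member with an adjusted p under 0.05. Gfra3 encodes the receptor subunit for the neurotrophic factor artemin. Its level was 9.79, 10.05, 9.90 and 9.98 in the Sox2-Tbx2LOF pools and 9.33, 9.93, 9.53 and 9.89 in the control pools. The control pools spread more widely and overlapped the Sox2-Tbx2LOF pools. The ratio was 0.46, 0.12, 0.37 and 0.09 on arrays 1 to 4, positive on all, with a mean of 0.26 ± 0.19 (SD, n = 4) or 1.20-fold. Limma gave an SE of 0.047, an unadjusted p of 0.000478 and an adjusted p of 0.0495, close to the threshold. The adjusted p was above 0.05 in 11 of 15 alternative analyses and after leaving out any 1 of the 4 arrays (0.0620 to 0.210). Without the dye term it was 0.524.

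The transcription factor Egr2, which drives myelination in Schwann cells, and Mal, a proteolipid of myelin membranes, varied most among the glial members. Mal had a level of 14.34, 14.05, 14.36 and 14.17 in the Sox2-Tbx2LOF pools and 13.59, 14.15, 14.11 and 14.26 in the control pools. Egr2 had 12.25, 11.89, 12.01 and 12.00 against 11.57, 11.97, 11.81 and 12.15. Female control pool 1 was the lowest of all 8 pools for Mal, Egr2 and Gfra3. On array 1 the ratios were 0.75 for Mal and 0.68 for Egr2, on array 3 they were 0.24 and 0.20, and on arrays 2 and 4 both genes were below 0. The mean ratio of Mal was 0.20 ± 0.40 (SD, n = 4), with a limma SE of 0.077, an unadjusted p of 0.0285 and an adjusted p of 0.551. That of Egr2 was 0.17 ± 0.38 (SD, n = 4), with an SE of 0.075, an unadjusted p of 0.0555 and an adjusted p of 0.735. Without array 1 the ratios were 0.08 for Mal, 0.05 for Egr2 and 0.03 for Pmp22, and without array 3 they were 0.33 (adjusted p 0.0628), 0.29 (0.117) and 0.17 (0.481).

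**Figure D2:**
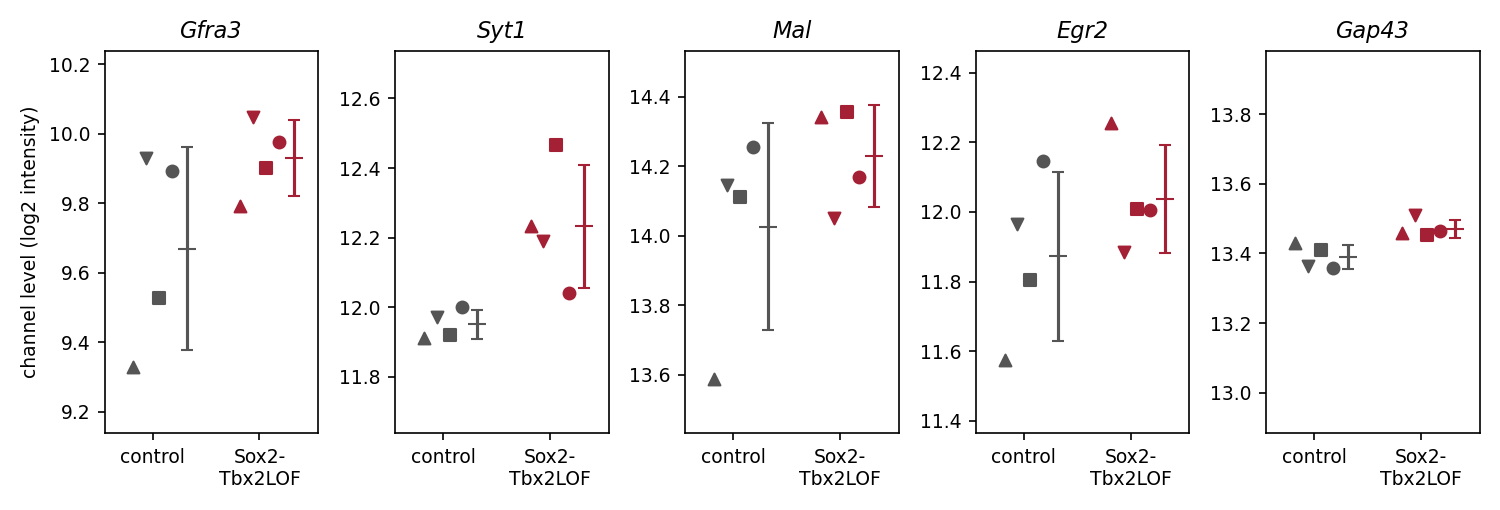
Channel level (y axis, log2 intensity after normalisation, each panel spanning the same range) of 5 members in the 4 control pools (grey) and the 4 Sox2-Tbx2LOF pools (red). Upward triangles are pools of array 1, downward triangles array 2, squares array 3 and circles array 4, with the mean and SD beside them. Control pool 1 is the lowest for Gfra3, Mal and Egr2, and the genotypes do not overlap for Syt1 and Gap43.

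The genes of myelin proteins other than Mal had means from −0.01 to 0.10 at their brightest probes. Pmp22, a membrane protein of peripheral myelin, had ratios of 0.34, −0.01, 0.05 and 0.03 (limma, mean 0.10, SE 0.058, unadjusted p 0.108, adjusted p 0.935), so that array 1 was well above the other 3. A second, dimmer Pmp22 probe had a mean of −0.03. Mbp, myelin basic protein, had a mean of −0.01 at its brightest probe. A dim Mbp probe had ratios of 0.54, 0.14, 0.06 and 0.16 (mean 0.22, unadjusted p 0.0162, adjusted p 0.404), and the third had a mean of −0.04. The sign thus differed between the Mbp probes, and that of the brightest followed the dye. Cnp, an enzyme of myelin membranes, had a mean of 0.08, and Mag, an adhesion protein between axon and myelin, one of 0.06. Erbb3, the neuregulin receptor of Schwann cells, had a mean of 0.04, and Foxd3, a transcription factor of neural crest and satellite glia, one of −0.05.

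The ratios of nerve genes depended on the dye orientation, as did those of the array as a whole. The dye term, 0.5 times the difference between the mean ratios of the orientations, exceeded the mean ratio in size for 25 of 35 members (71.4%), as it did for 67.8% of all tested probes. With Sox2-Tbx2LOF in Cy3 the mean ratio was 0.50 for Mal, 0.44 for Egr2 and −0.22 for Elavl4, and with it in Cy5 these were −0.09, −0.11 and 0.41. The ratio had one sign on both arrays of one orientation and the other sign on both arrays of the other for 17 of 35 members (48.6%), against 31.7% of all tested probes. These were 12 neuronal and 5 glial members. A positive ratio on 4 of 4 arrays was found for Gfra3, Syt1, Gap43 and Ntrk2 (11.4% of the members, against 4.43% of all tested probes) and a negative one for no member (4.62% of all). Because each orientation was used once per sex, the dye cancels in the mean over the 4 arrays but widens the spread between single arrays.

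**Figure D3:**
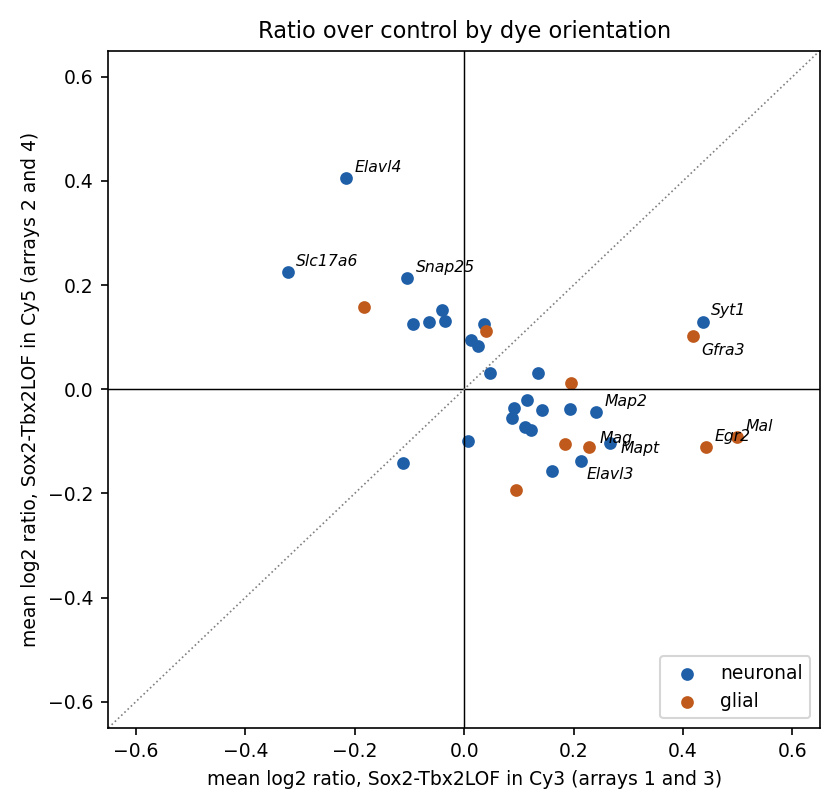
Mean log2 ratio of Sox2-Tbx2LOF over control on the arrays with Sox2-Tbx2LOF in Cy3 (x axis) and in Cy5 (y axis), 1 point per tested member, blue neuronal and orange glial, with the line of equal values dotted. Most points lie at the upper left and the lower right, where the sign follows the dye, and Syt1 and Gfra3 lie farthest to the upper right.

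No member differed between the sexes past the correction. The ratio differed between male and female pools at an unadjusted p under 0.05 for 2 members, Prph and Syn2, against 2.01% of all tested probes, and by limma no probe had an adjusted p under 0.05 (0%). The ratio of Prph was −0.28 on the female and 0.03 on the male arrays (difference 0.31, limma unadjusted p 0.0219), and that of Syn2 was −0.11 and 0.15. The level, averaged over both channels of an array, differed at an unadjusted p under 0.05 for 3 members, as for 7% of all probes, and 0.0463% of all probes but none of the members passed the correction. The male minus female difference of the level was 0.36 for Slc17a6, 0.19 for Mal and −0.26 for Elavl3 on the log2 scale. With 2 arrays per sex, a sex difference cannot be separated from a difference between these dissections.

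The amount of nerve RNA per pool was summarised as the level of each member minus its mean over the 8 pools, averaged over a class. The neuronal score was 0.03, −0.03, 0.06 and 0.02 in Sox2-Tbx2LOF pools 1 to 4 and 0.01, −0.04, −0.03 and −0.03 in control pools 1 to 4. The spread over all 8 pools was small (SD 0.037, range 0.11 on the log2 scale), and the genotypes overlapped. Within an array the Sox2-Tbx2LOF pool had the higher neuronal score on 4 of 4 arrays, but on array 2 by little (−0.03 against −0.04). On that array only 12 of the 26 neuronal members had a ratio above 0, with a median of −0.03. The glial score was 0.11, −0.01, 0.05 and 0.04 in Sox2-Tbx2LOF pools and −0.17, 0.01, −0.10 and 0.07 in control pools. It was higher in Sox2-Tbx2LOF on arrays 1 and 3, where Sox2-Tbx2LOF was in Cy3, and lower on arrays 2 and 4. The sign of the glial difference thus followed the dye. The scores carry no dye correction, so that in a single pool dye and amount of RNA cannot be told apart. The glial score had an SD of 0.092 over the 8 pools and a range of 0.28. Its SD was 0.048 among Sox2-Tbx2LOF and 0.11 among control pools, and control pool 1, labelled with Cy5, was again the lowest. Before the quantile normalisation of brightness between arrays the SD over 8 pools was 0.11 for either score.

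**Figure D4:**
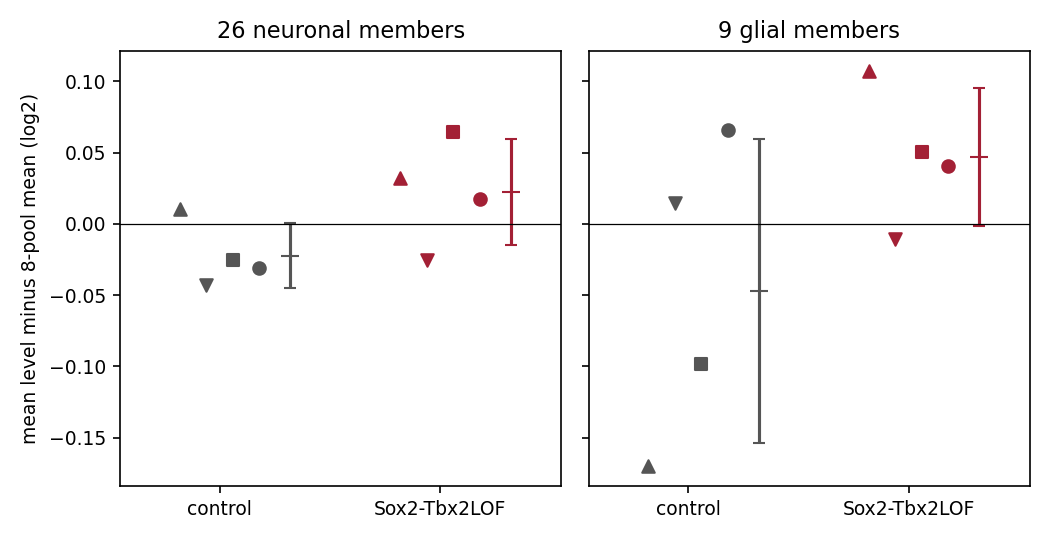
Level minus its mean over the 8 pools (y axis, log2 scale), averaged over 26 neuronal members (left) and 9 glial members (right), for control pools (grey) and Sox2-Tbx2LOF pools (red). Symbols give the array as in the plot of levels per pool, with the mean and SD beside them. The neuronal scores stay between −0.04 and 0.06, and the glial scores reach from −0.17 to 0.11. The scores are not corrected for the dye.

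Of 40 other genes of neurons 39 were tested, and 32 had a mean above 0 (82.1%, against 51.9% of all tested probes). The median ratio was 0.04, and none was called, where 0.249% of all probes were. An unadjusted p under 0.05 was found for 5 of them (12.8%, against 7.11%). Levels without overlap, with Sox2-Tbx2LOF higher, were found for 1 of them (2.56%, against 1.19% of all tested probes). Isl1, which encodes a transcription factor of sensory neurons and also of the developing ear, was the single gene with an adjusted p under 0.05. Its level was 14.36, 14.28, 14.39 and 14.25 in Sox2-Tbx2LOF pools and 13.93, 14.14, 14.02 and 14.07 in control pools, without overlap (mean ratio 0.28 ± 0.14, SD, n = 4, limma adjusted p 0.0323). It lost this in 7 of 15 alternatives, among them those without array 1 (0.140), without array 3 (0.0997) and without array 4 (0.0560). The neurons' secretory protein gene Scg2 had ratios of 0.71, −0.34, 0.86 and 0.04 (adjusted p 0.0933), Map1b, of the microtubule cytoskeleton, a mean of 0.13, the calcium sensor gene Vsnl1 0.19 and the vesicle protein gene Sv2b 0.14, none past the correction.

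Of 27 other glial genes 25 were tested, 18 had a mean above 0, and the median ratio was 0.06. None was called. An unadjusted p under 0.05 was found for 7 of them (28%, against 7.11% of all tested probes), all with a positive mean, and an adjusted p under 0.05 for 2 (8%, against 0.982%). Aspa, an enzyme that cleaves acetylaspartate in myelinating cells, had a level of 10.23, 10.43, 10.25 and 10.47 in Sox2-Tbx2LOF pools and 9.90, 9.91, 10.06 and 9.97 in control pools. The genotypes did not overlap for 4 of the 25 genes, with Sox2-Tbx2LOF higher (16%, against 1.19% of all tested probes). Aspa was among them, and the mean ratio of Aspa was 0.38 ± 0.15 (SD, n = 4) or 1.30-fold (limma adjusted p 0.00812). Its adjusted p was under 0.05 without each array in turn (0.00402 to 0.0404), and over 0.05 in 2 of 15 alternatives, without the dye term (0.103) and in the series matrix (0.282). Col28a1, a collagen gene of Schwann cells, had ratios of 0.57, 0.51, 0.40 and 0.20 (mean 0.42, adjusted p 0.0191, and over 0.05 in 6 of 14 alternatives, among them 0.0843 without array 1). This Col28a1 probe was dim, with a signal 1.33 times the background in its dimmest pool, and its ratio moved to 1.02 in the scanner software's own values. Pou3f1, Gjc3 and Egfl8, which encode a Schwann cell transcription factor, a glial connexin and a secreted protein, had means of 0.25, 0.21 and 0.16 and did not pass the correction. Sox10, whose RNA was not assigned to a cell type here, had a mean of 0.02.

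Among 11 ligands and receptors of nerve cells, of which 10 were tested, Ntf3 had an adjusted p under 0.05. It encodes neurotrophin-3, the ligand of the Ntrk3 product, and is known from the cochlear epithelium itself. The Ntf3 level was 12.88, 13.05, 13.07 and 12.93 in Sox2-Tbx2LOF pools and 13.24, 13.30, 13.34 and 13.35 in control pools (chr6:126051431-126051490). All Sox2-Tbx2LOF pools lay below all control pools, as for 1.33% of all tested probes. The mean ratio was −0.33 ± 0.08 (SD, n = 4), a level 0.798 times that of control (limma adjusted p 0.0262), and the adjusted p of Ntf3 was over 0.05 in 8 of 15 alternatives, among them those without array 1 (0.118) and without array 3 (0.0717) and the series matrix (0.353). Bdnf, the ligand of the Ntrk2 product, had a mean of −0.06, Gfra1 −0.05 and Gfra2 0.22, none past the correction.

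**Figure D5:**
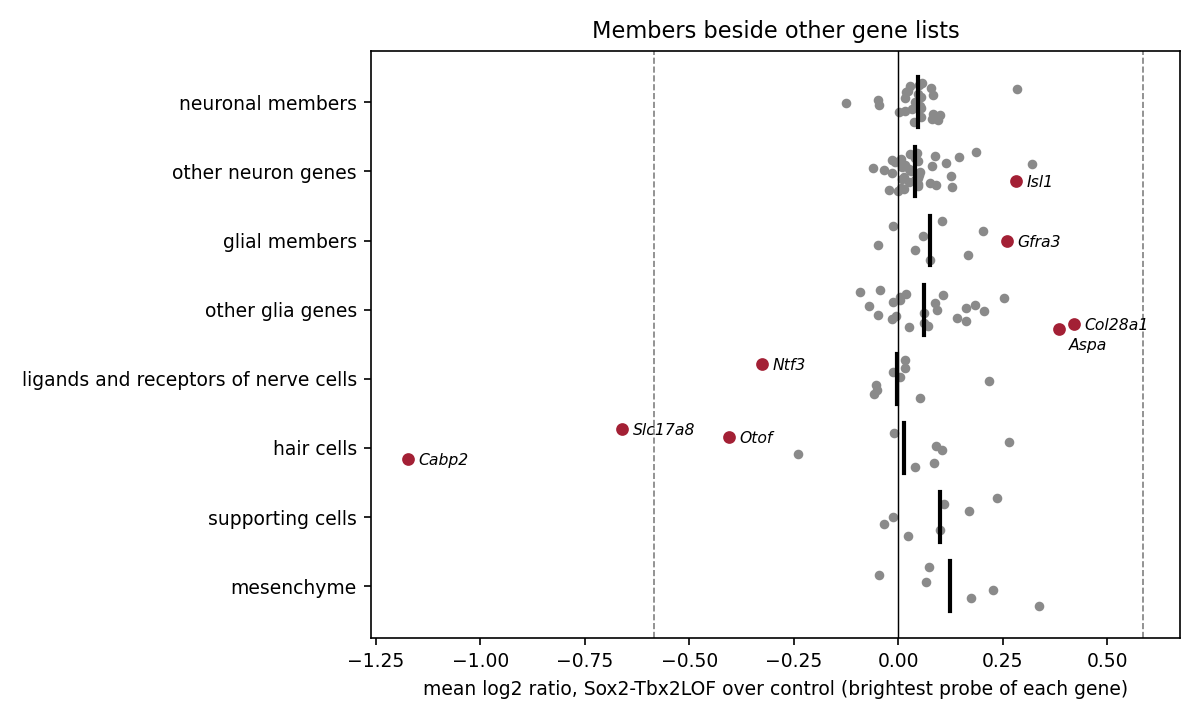
Mean log2 ratio of Sox2-Tbx2LOF over control (x axis) of each tested gene of 8 lists (y axis), with the list medians as black lines, genes with a limma adjusted p under 0.05 in red and dashed lines at a 1.5-fold change. Nerve genes lie between the dashed lines, and Cabp2 and Slc17a8 of the hair cell list lie beyond the left one.

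The marker genes of other tissues in the dissection were read in the same way. Of the hair cell markers 3 had an adjusted p under 0.05 (0.982% of all tested probes did), Cabp2, Slc17a8 and Otof, all lower in Sox2-Tbx2LOF pools. Of these 2 were called, against 0.249% of all tested probes. The 10 markers did not shift together, with 5 mean ratios above 0, 5 below and a median of 0.01. The averaged level of the 10 hair cell markers, taken as for the nerve scores, was −0.16 to −0.01 in Sox2-Tbx2LOF pools and −0.02 to 0.15 in control pools. The 7 supporting cell markers ran from 0.00 to 0.08 and from −0.11 to 0.04, and the 6 mesenchymal markers from −0.03 to 0.24 and from −0.19 to 0.13. Of the mesenchymal markers 5 had a mean ratio above 0, with a median of 0.12, and 3 had an unadjusted p under 0.05 but none an adjusted one. Col1a1, a collagen gene of connective tissue, was at 0.34 (adjusted p 0.0614). The 4 blood markers ran from −0.24 to 0.09 and from −0.04 to 0.11, and the 3 melanocyte markers from −0.31 to 0.06 and from −0.30 to 0.35. All tested blood and melanocyte markers had a mean ratio below 0, with medians of −0.08 and −0.20. The part of these tissues in the nerve gene ratios was not tested.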

How the data were processed

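RNA was measured on 4 dual-colour Agilent arrays, with 4 independent sex-sorted pools per genotype. The authors read them out with Agilent Feature Extraction 10.7.3.1, and the deposited files give each spot's linear, unnormalised intensity and the software's log10 ratio. The deposited series matrix holds the authors' signed fold change values, a score whose making the sources used here do not describe. On the log2 scale these correlated with the ratios computed here at r of 0.937 to 0.953, which settled their direction (all column medians 0). Neither of these was used except as an alternative.

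Background was corrected with normexp (offset 50) and arrays were normalised by loess in limma 3.58.1 (R 4.3.3). Spots of a probe were averaged without flagged spots. Ratios are log2 of Sox2-Tbx2LOF over control. Probes that were well above background in more than 0.5 of their spots on at least 3 of 4 arrays in 1 channel were tested with lmFit and eBayes and a dye term, two-sided, with Benjamini-Hochberg adjustment over 28104 probes. A call needed an adjusted p under 0.05 and a fold of at least 1.5. Ratios of dim probes are drawn towards 0 by the offset. Levels are channel values after loess and quantile normalisation of brightness between arrays (Aquantile), and levels of different probes were not compared. Precision is limited by the 4 arrays, which shared 1 slide and 1 scan.

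The members and all lists were chosen with earlier results of these data known. Full statistics are given for members with an adjusted p under 0.05 and for the 10 others with the smallest unadjusted p, other members are named by role, and of further lists genes with an adjusted p under 0.05 and up to 4 with the smallest p are named, except for some that are not reported here. Significance Analysis of Microarrays (SAM), the unpaired test of the study's methods, was an alternative. The fitting procedure was tested on simulated data. Other alternatives concerned the offset, the normalisation, the filter, the dye and sex terms, single arrays and the use of all probes of a gene. The intervals and the genes of further lists were added to these after seeing the data.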

Additional observations from a re-analysis of the deposited data

How the results depend on the processing

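No member was called in either direction by limma under any alternative that kept the minimum fold, nor by SAM. Without that fold 1 member was called higher, Gfra3. The interval of each tested member stayed inside 1.5-fold either way under all alternatives, also for 36 members without the filter on dim probes. Nearly all tested probes had such an interval in the main analysis (27923 of 28104). The count of members with an adjusted p under 0.05 was 1, and it was 0 with the scanner software's log ratio, the series matrix, no filter on dim probes, the stricter filter in both channels, no dye term, sex as an additional term and the unpaired fit of the 8 pools with no replicate block. It was 0 to 1 when single arrays were left out, where the 1 was Syt1 without array 4. The count with an unadjusted p under 0.05 was 3, and it was 6 in the series matrix, 5 with the sex term, 1 in the unpaired fit without the pairing by array and 2 to 6 without single arrays. The median ratio stayed above 0 in all alternatives and was 0.04 to 0.07 for all, 0.03 to 0.06 for neuronal and 0.04 to 0.11 for glial members when single arrays were left out. Members whose ratio differed between the sexes at an unadjusted p under 0.05 numbered 1 with an offset of 16, and members whose level did so numbered 1 without quantile normalisation. The SD of the neuronal score was 0.11 without quantile normalisation against 0.037 with it. Of 224 values of named genes under alternatives none changed sign, 34 lost and 1 gained an adjusted p under 0.05. The losses fell on Gfra3 (11 of 15 alternatives), Isl1 (7 of 15), Aspa (2 of 15), Col28a1 (6 of 14) and Ntf3 (8 of 15). The rest of the 224 values belong to genes that had no adjusted p under 0.05 to lose. The ratio was the same by construction where only the filter, the dye or sex term or the pairing changed, so its sign could not change there. The genes of the 224 values had also been named for their small p values. The slide as a block was not run, since all arrays shared 1 slide. The cause of these shifts was not tested. For dim probes, such as that of Col28a1, the signal over background limits the ratio.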
